A study of Homo sapiens with 2 samples.

Results

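The contacts of human chromosome 17 were described in 2 METTL3 HiChIP libraries of IMR90 cells, a line of diploid fibroblasts from embryonic lung. Members were all listed contacts with both anchors on chromosome 17: 285 of 12221 in the control library and 10050 of 150390 in the senescent library, 10335 of 162611 in all. METTL3 is the catalytic subunit of the enzyme complex that methylates adenosine in RNA, and HiChIP ligates pieces of chromatin that are neighbours in the nucleus and then selects the ligated DNA with an antibody. The control group and the senescent group held 1 library each. Both were labelled wild type, and the growth conditions given for both were serum-containing medium at 2% oxygen. Senescence was brought about by inducible expression of H-RASG12V (the substitution G12V in H-RAS) fused to the estrogen receptor; whether the control cells carried the uninduced fusion is not given in the sources used here, nor is the time after induction. The comparison asks how contacts at METTL3-bound chromatin are arranged in control and in senescent cells.

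Chromosome 17 is short, rich in genes and uneven: blocks dense in housekeeping and signalling genes alternate with gene clusters that fibroblasts do not use, such as those for keratins, and with stretches nearly without genes. It carries loci that matter to fibroblasts and to RAS-driven senescence, among them COL1A1, which encodes the main chain of type I collagen, NF1, whose product switches RAS off, and VMP1 with MIR21, a microRNA gene at the end of VMP1 whose product is abundant in activated fibroblasts. In long-range contact maps, gene-dense blocks of this kind usually contact each other more often than gene deserts do. Gene names below are landmarks from general knowledge of the hg19 map, chosen after the values were seen. No hg19 annotation was used, so whether an anchor lies on a promoter, exon or intron was not tested. Gene order was read from the RefSeq table of GRCh38.p14, whose coordinates were not used. All coordinates are hg19, 1-based.

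The sequences that belong to the places described most closely are the mature product of MIR21 and the promoters of VMP1, ACTG1 and GABARAP. They come from RefSeq (GRCh38.p14), matched by gene symbol, on the strand of the gene. In the microRNA the capitals mark the seed, bases 2 to 8. In the promoters, which give the 250 bases before the gene start, the capitals mark GATC, the site cut by MboI, the enzyme that opened the chromatin in these libraries.
hsa-miR-21-5p: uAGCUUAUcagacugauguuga
VMP1 promoter: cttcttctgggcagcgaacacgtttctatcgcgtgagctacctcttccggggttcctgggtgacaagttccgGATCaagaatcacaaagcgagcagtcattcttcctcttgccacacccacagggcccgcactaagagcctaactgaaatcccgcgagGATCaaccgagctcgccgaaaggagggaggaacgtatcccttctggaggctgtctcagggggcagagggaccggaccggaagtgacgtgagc
ACTG1 promoter: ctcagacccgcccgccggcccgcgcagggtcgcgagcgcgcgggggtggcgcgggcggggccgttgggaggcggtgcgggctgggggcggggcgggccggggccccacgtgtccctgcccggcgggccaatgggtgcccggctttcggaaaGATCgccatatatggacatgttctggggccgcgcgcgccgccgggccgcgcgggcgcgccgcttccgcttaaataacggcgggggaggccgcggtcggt
GABARAP promoter: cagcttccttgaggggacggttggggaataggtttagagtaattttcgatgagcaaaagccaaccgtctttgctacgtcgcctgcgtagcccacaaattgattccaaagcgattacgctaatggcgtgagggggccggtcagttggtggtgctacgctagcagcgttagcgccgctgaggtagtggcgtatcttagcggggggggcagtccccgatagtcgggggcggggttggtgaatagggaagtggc
GATC reads the same on both strands. It occurs 2 times in the VMP1 window, 1 time in the ACTG1 window and 0 times in the GABARAP window. Of 1639 such windows on chromosome 17, 592 (36.1%) held it, against 12569 of 35116 (35.8%) over all chromosomes. This describes letters in these windows and says nothing of where the antibody bound.

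Chromosome 17 held 354 paired-end tags (PETs, the read pairs that join 2 anchors) over 312 anchors in the control library. In the senescent library it held 12929 PETs over 3894 anchors. The senescent table was thus 36.5 times larger in PETs, 35.3 times in contacts and 12.5 times in anchors on this chromosome. Among the 22 autosomes, chromosome 17 ranked 16 by number of control contacts and 3 by number of senescent contacts. The tables list only joined anchor pairs, so that sequencing depth is unknown; depth and the number of METTL3 contacts cannot be told apart in an unscaled count. No difference given here has a replicate check, since each group is 1 library. Intervals are 95% intervals for counting error only, and compare these libraries, not the conditions.

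Along the chromosome the libraries filled different places. The control contacts were concentrated in a few windows, above all at VMP1 and MIR21, whereas the senescent contacts were spread over most of the chromosome and heaped up toward the end of the long arm. Counted by contact midpoint in 82 windows of 1 Mb, 57 windows had contacts in both libraries, 19 in the senescent library only and 0 in the control library only. The other 6 had none in either: these were the windows from 22 to 25 Mb, at the centromere, and from 50 to 53 Mb, a stretch poor in genes. The 19 windows with senescent contacts only held 3608 PETs, 27.9% of the senescent total. No window was among the 10 fullest of both libraries. These counts of windows were not made for the other autosomes, so whether they are particular to chromosome 17 was not tested. Listed windows held a median of 3 control PETs and 124 senescent PETs, and the part of table size in this contrast was not tested.

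**Figure D1:**
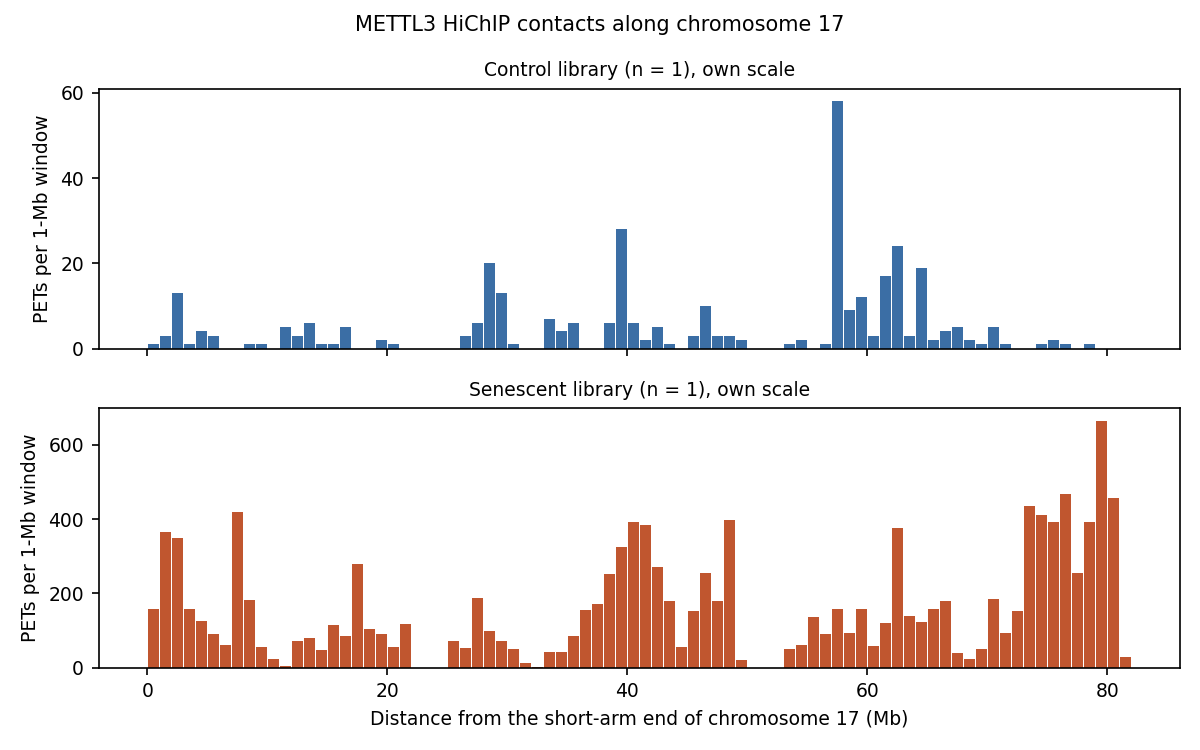
PETs per 1-Mb window along chromosome 17, counted by contact midpoint, in the control library (upper panel) and the senescent library (lower panel), each on its own axis starting at 0. The tallest control bar, at 57 to 58 Mb, stands for 58 PETs, and the tallest senescent bar, at 79 to 80 Mb, for 665.

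In the control library the window at 57 to 58 Mb held 58 PETs, 16.4% of all control PETs on the chromosome (12.7 to 20.7%, exact Clopper-Pearson interval). The next fullest were 39 to 40 Mb, within the type I keratin and keratin-associated gene clusters, with 28 PETs, 62 to 63 Mb with 24, 28 to 29 Mb with 20, 64 to 65 Mb with 19 and 61 to 62 Mb with 17. The windows at 2 to 3, 29 to 30, 59 to 60 and 46 to 47 Mb followed with 13, 13, 12 and 10 PETs. These 10 windows together held 60.5% of the control PETs, and 7 windows sufficed for 50%. The senescent library held 158 PETs at 57 to 58 Mb, 325 at 39 to 40 Mb, 376 at 62 to 63 Mb and 98 at 28 to 29 Mb.

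In the senescent library the fullest window held 5.14% of the PETs (4.77 to 5.54%), and the 10 fullest held 34.3%; 16 windows were needed for 50%. After 79 to 80 Mb (665 PETs), which holds ACTG1, the gene of cytoplasmic gamma-actin, came 76 to 77 Mb with 468 PETs and 80 to 81 Mb with 456. The windows at 73 to 74, 74 to 75, 75 to 76 and 78 to 79 Mb held 436, 412, 393 and 393 PETs. Away from this end of the chromosome, the fullest were 7 to 8 Mb with 418 PETs, 48 to 49 Mb, which holds COL1A1, with 399, and 40 to 41 Mb, which holds STAT3, with 392. The control library listed 3 PETs at 48 to 49 Mb, 6 at 40 to 41 Mb, 2 at 75 to 76 Mb and 1 in each of the windows at 74 to 75, 76 to 77 and 78 to 79 Mb. It listed none at 7 to 8, 73 to 74, 79 to 80 and 80 to 81 Mb.

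The contrast is shown by 2 stretches of 8 Mb on the long arm, which were picked after the values were seen and are not the only ones of their kind. From 57 to 65 Mb lay 145 control PETs (41.0%, 35.8 to 46.3%) and 1229 senescent PETs (9.51%, 9.01 to 10.02%). From 73 to 81 Mb lay 5 control PETs (1.41%, 0.460 to 3.27%) and 3479 senescent PETs (26.9%, 26.1 to 27.7%). There were 80 control and 395 senescent anchors from 57 to 65 Mb, and 8 and 713 from 73 to 81 Mb. The short arm, up to the centromere, held 14.4% of the control PETs (10.9 to 18.5%) and 23.5% of the senescent PETs (22.8 to 24.3%).

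Each window's share of its library's chromosome 17 PETs was then set against the share in the other library, over the 75 windows with at least 10 PETs in sum. The interval of the ratio lay above 1, that is toward the senescent library, in 17 windows (22.7%) and below 1 in 12 windows (16%). On the other 21 autosomes, each scaled in the same way, 24.4% of 1885 windows lay above 1 and 20.9% below, so that both shares on chromosome 17 were near this background. Of the 17 windows, 10 had no control PET listed. Scaled to all autosomal PETs, 41 windows (54.7%) lay above 1 and 6 (8%) below, against 26.4% and 22.6% of 1960 autosomal windows. Across the 82 windows, which share their library and are no replicates, PETs of the libraries had a Pearson correlation of 0.09 and a Spearman correlation of 0.21.

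**Figure D2:**
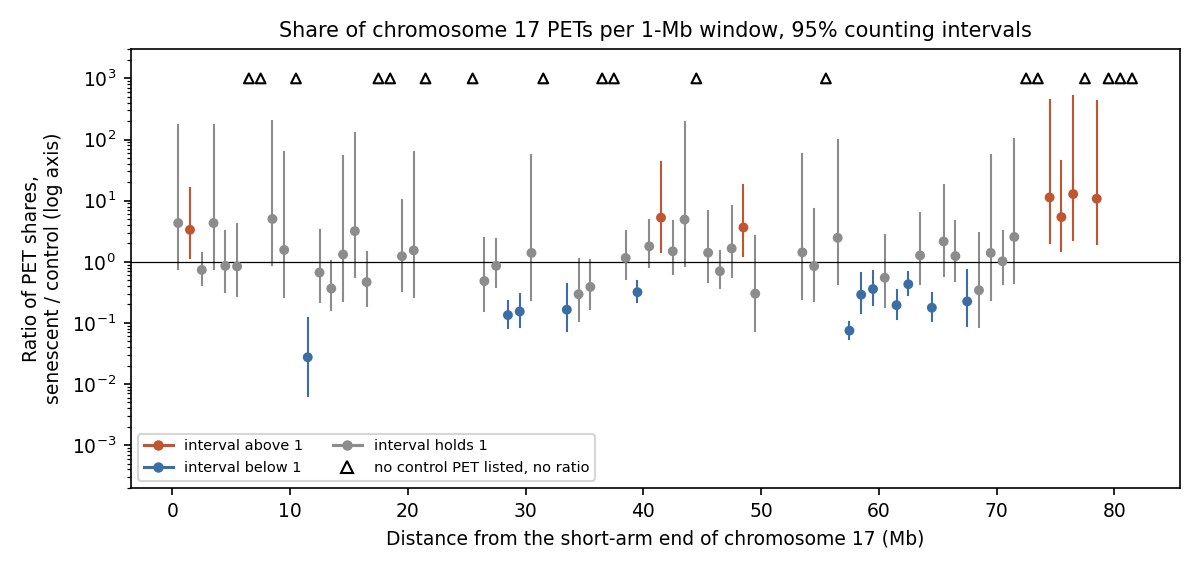
Ratio of each window's share of chromosome 17 PETs, senescent over control, with exact conditional binomial intervals at 95% on a log axis, for windows with at least 10 PETs in sum; triangles mark windows with no control PET listed, for which no ratio is given. Intervals lie below 1 in most windows from 57 to 65 Mb and above 1 in the windows from 74 to 79 Mb that have a ratio.

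Among windows listed in both libraries, the ratios furthest toward the senescent library were those at 76 to 77 Mb (12.8, 2.29 to 507), 74 to 75 Mb (11.3, 2.01 to 447), 78 to 79 Mb (10.8, 1.92 to 426), 75 to 76 Mb (5.38, 1.48 to 44.6) and 41 to 42 Mb (5.27, 1.45 to 43.7). Each rests on 1 or 2 control PETs. Furthest toward the control library were 11 to 12 Mb (0.0274, 0.00630 to 0.119) with 5 PETs in each library, 57 to 58 Mb (0.0746, 0.0549 to 0.103), 28 to 29 Mb (0.134, 0.0823 to 0.229), 29 to 30 Mb (0.154, 0.0846 to 0.302) and 33 to 34 Mb (0.164, 0.0731 to 0.433). The window at 11 to 12 Mb holds the start of MAP2K4, a kinase that activates JNK. Between 11.9 and 12.1 Mb the control library listed 3 contacts with 5 PETs, among them 1 of 3 PETs joining 11926741 to 11928761 with 11943286 to 11945625. The senescent library listed 4 anchors and 0 contacts inside these bounds.

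The VMP1 and MIR21 locus was the most contacted place of the chromosome in control cells. VMP1 encodes a membrane protein of autophagosome formation; in the RefSeq order it lies after CLTC, the clathrin heavy chain gene, and PTRH2, and before TUBD1. From 57.68 to 57.99 Mb the control library listed 15 anchors and 36 contacts with 57 PETs, which is 16.1% of its chromosome 17 PETs (12.4 to 20.4%). The senescent library listed 22 anchors and 52 contacts with 76 PETs, 0.588% of its PETs (0.463 to 0.735%). In unscaled PETs, 57 and 76, the locus was of similar size in tables that differed 36.5-fold over the chromosome. Of the 15 control anchors, 12 overlapped a senescent anchor.

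**Figure D3:**
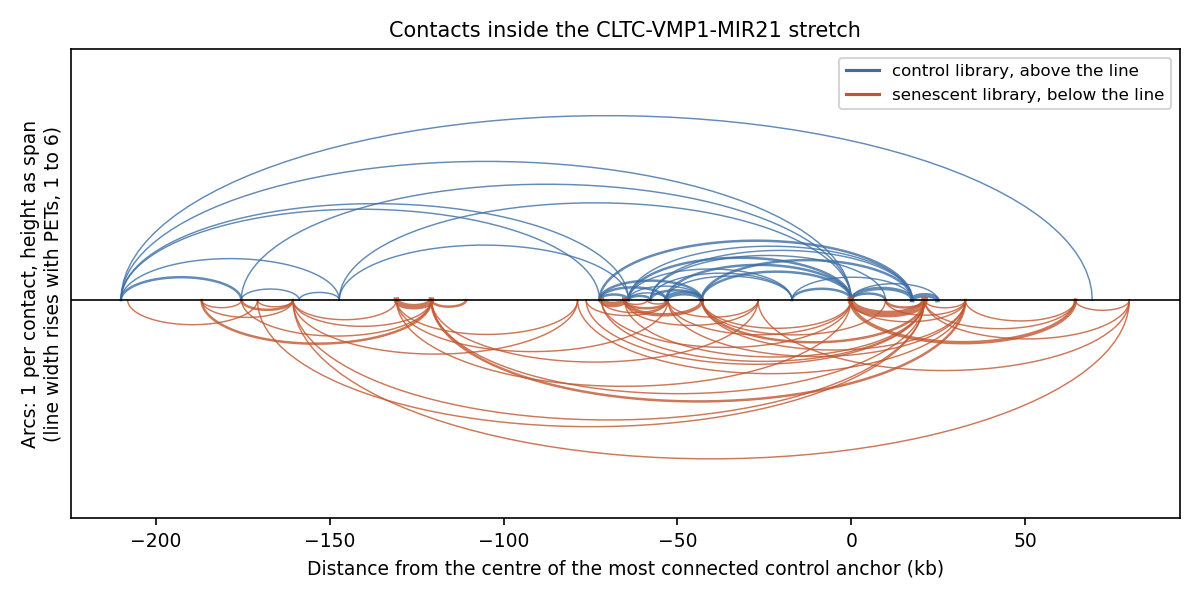
Contacts with both anchors between 57.68 and 57.99 Mb, drawn as arcs whose height follows their span and whose line width rises with PETs, for the control library (above) and the senescent library (below), against distance in kb from the centre of the anchor at 57902010 to 57908254. The 36 control arcs crowd over the right-hand part, and the 52 senescent arcs include a group at the start of VMP1, between 57759034 and 57830135, where the control library lists no anchor.

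The control anchors with the most partners on the whole chromosome lay here. The first, at 57902010 to 57908254, near the end of VMP1, had 10 partners and 17 PETs; 7 partners lay to the left, up to 210 kb away, and 6 were joined by at least 2 PETs. The second, at 57838586 to 57843539, had 9 partners and 12 PETs, and the third, at 57919814 to 57925466, just past MIR21, had 8 partners and 15 PETs. Anchors at 57858614 to 57865625 (6 partners), 57693704 to 57696385 before CLTC (6 partners) and 57850834 to 57852920 (5 partners) were also among the first 8. All of these overlapped a senescent anchor, and the number of PETs of the overlapping anchors was similar at several: 17 control against 16 senescent PETs at the first, 12 against 15 at the second, 13 against 13 at the anchor from 57858614, and 10 against 9 at the anchor from 57850834. At the third the senescent anchor had 31 PETs against 15.

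The libraries departed at several places within the locus, among them MIR21 and the start of VMP1. Elsewhere, the senescent anchor at 57936641 to 57939256, with 10 partners and 11 PETs, overlapped no control anchor. The control anchor at 57887105 to 57889048, with 5 partners and 6 PETs, overlapped no senescent anchor. At MIR21 the senescent library had 1 anchor of 15.4 kb, from 57918501 to 57933925, with 22 partners up to 1289 kb away and a strongest contact of 6 PETs to 57901563 to 57908499. The control library had 2 anchors in the same interval, at 57919814 to 57925466 and 57928326 to 57931502, joined to each other by 4 PETs, the highest count of any control contact on the chromosome. Since both fall in 1 senescent anchor, the senescent table could not list that contact; 6 of the 285 control contacts (2.11%) were of this kind. At the start of VMP1 the senescent library had an anchor at 57780439 to 57788207 with 10 partners and 17 PETs, the strongest of 5 PETs to its neighbour at 57769472 to 57779129. The control library listed no anchor between 57759034 and 57830135. The promoter of VMP1 printed above belongs to this place and holds both GATC sites shown.

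Of the 8 control contacts with the most PETs, 3 lay in the VMP1 locus. Besides the 4-PET contact at MIR21, these joined 57850834 to 57852920 with 57858614 to 57865625 (4 PETs) and 57902010 to 57908254 with 57919814 to 57925466 (3 PETs). Only the last of these 8 had a senescent counterpart, of 6 PETs. Contacts of 3 PETs also joined 28658164 to 28661225 with 28666704 to 28668465, and 28583008 to 28585088 with 28597660 to 28599924. The contact between 59275916 to 59281287 and 59284792 to 59287246, in BCAS3, had 4 PETs, as had that between 28237612 to 28240111 and 28245193 to 28248476, in SSH2, which encodes a phosphatase that activates cofilin. The anchors of the latter overlapped no senescent anchor. In NF1, from 29.3 to 29.75 Mb, the control library had 10 contacts with 13 PETs and the senescent library 12 contacts with 15 PETs. In PRKCA, the gene of protein kinase C alpha, from 64.2 to 64.85 Mb, they had 14 contacts with 19 PETs and 70 contacts with 87 PETs. As shares of chromosome 17 PETs, NF1 held 3.67% (control) and 0.116% (senescent), and PRKCA held 5.37% and 0.673%. The anchor at 64460185 to 64466583 in PRKCA was sixth by partners in the control library, with 6, and reached 64271236 to 64273731, 190.9 kb away, with 3 PETs.

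The keratin block and SMURF2 showed 2 further patterns. From 39 to 39.6 Mb, where genes for type I keratins and hair keratin-associated proteins lie side by side, the control library had 16 anchors and 23 contacts with 27 PETs, and the senescent library 31 anchors and 55 contacts with 73 PETs. No control contact there exceeded 2 PETs and no senescent contact exceeded 3. Of the 16 control anchors 13 overlapped a senescent anchor. The block held 7.63% of the control and 0.565% of the senescent PETs of chromosome 17. Around SMURF2, which encodes a ubiquitin ligase that dampens TGF-beta signalling, all 12 control anchors from 62.5 to 62.8 Mb overlapped a senescent anchor. The control library had 17 contacts with 20 PETs there and the senescent library 116 contacts with 202 PETs. By share of chromosome 17 PETs this was 5.65% (3.48 to 8.59%) in the control library and 1.56% (1.36 to 1.79%) in the senescent. These bounds also take in CEP95, the gene before SMURF2 in the RefSeq order. Toward that side the senescent anchor at 62525436 to 62539455, with 31 PETs, overlapped no control anchor. The control anchor at 62674083 to 62681170 had 7 partners and 10 PETs, and the senescent anchor over it had 21 partners and 39 PETs.

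COL1A1 was listed mainly in the senescent library, in unscaled counts. The senescent anchor at 48249557 to 48291503, which covers the gene, was the widest on the chromosome at 41.9 kb. It had 27 partners, 14 to the left and 13 to the right, and 54 PETs; 12 partners were joined by at least 2 PETs and 4 lay more than 500 kb away, the farthest at 1000.2 kb. Its strongest contact, of 5 PETs, went to 48340237 to 48353442, 76.3 kb to the right, in the direction of TMEM92, the next gene in the RefSeq order. Contacts of 4 PETs each went to 48222577 to 48234812, 48237235 to 48240048 and 48245074 to 48248611 on the other side, in the direction of SGCA. From 48.1 to 48.4 Mb the senescent library had 21 anchors and 65 contacts with 130 PETs. The control library had 2 anchors and 1 contact with 1 PET, between neighbouring sites 8.93 kb apart. By share of chromosome 17 PETs this was 1.01% (0.841 to 1.19%) in the senescent library and 0.282% (0.00715 to 1.56%) in the control. The control interval holds the senescent share.

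The strongest senescent contacts joined wide neighbouring anchors, and most lay toward the ends of the chromosome. There were 3 with 17 PETs. The first joined 7114509 to 7127313 with 7128287 to 7147811, which hold ACADVL and, side by side, DVL2 of the Wnt pathway, PHF23 and GABARAP, an autophagy gene whose promoter is printed above. The others joined 75366613 to 75394973 with 75410395 to 75431921, and the latter with 75435707 to 75452931, all inside SEPTIN9, which encodes a filament-forming septin. The contact between 1952027 to 1980197 and 1983663 to 1997770 had 15 PETs; these lie at HIC1, a tumour suppressor gene encoding a transcriptional repressor, and its neighbour SMG6. The contact from the ACTG1 anchor at 79464756 to 79487789 to 79489269 to 79508349, toward FSCN2, had 13 PETs. The contact between 73756623 to 73762832 and 73763568 to 73777102, at GALK1 and the histone H3.3 gene H3-3B, had 12. Those between 77762445 to 77779607 and 77781363 to 77790879, at the Polycomb gene CBX8, and between 17593903 to 17608276 and 17609439 to 17646155, in RAI1, had 11 each. The gaps between the paired anchors ran from 735 to 15421 bp. None of these 8 contacts was listed in the control library, and no control anchor overlapped any of their anchors.

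Inside these loci the senescent library listed many contacts where the control library listed none. SEPTIN9, from 75.3 to 75.5 Mb, had 51 contacts with 166 PETs. The stretch with BAHCC1 and ACTG1, from 79.3 to 79.55 Mb, had 54 contacts with 117 PETs, and that around HIC1 and SMG6, from 1.9 to 2.1 Mb, had 49 with 97. Within these bounds the control library had 0 contacts, although it had 1 anchor in the SEPTIN9 stretch and 3 in the HIC1 stretch, whose partners lay elsewhere. The senescent shares of chromosome 17 PETs were 1.28% (SEPTIN9), 0.905% (BAHCC1 and ACTG1) and 0.750% (HIC1 and SMG6). The control share of 0 has an interval up to 1.04%, which holds the senescent shares of the ACTG1 and HIC1 stretches.

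Wide anchors carried the senescent hubs. Of the 3894 senescent anchors 141 were wider than 10 kb (3.62%, 3.06 to 4.26%), against 2.37% (2.26 to 2.49%) on the other 21 autosomes; only chromosome 16 had a higher share. In the control library 0 of 312 anchors were that wide, the widest being 8.88 kb. The median width was 2957 bp (2900 to 3020) in the senescent library and 2571 bp (2496 to 2658) in the control library; on the other autosomes it was 2929 and 2712 bp. Of the 141 wide anchors, 52 (36.9%) began at or beyond 72 Mb, where 20.6% of all senescent anchors began. Wide senescent anchors overlapped a control anchor in 17.7% of cases and narrower ones in 5.52%. A wider anchor has more bases in which to meet another, and the part of width in this difference was not tested. The senescent table was also the larger one, and the part of table size in anchor width was not tested.

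Partners rose with width, although not per kb. In the senescent library the median number of partners was 3 for anchors up to 2 kb, 4 from 2 to 5 kb, 8 from 5 to 10 kb and 15 above 10 kb. Partners per kb of anchor were 1.73, 1.37, 1.26 and 1.03 in the same classes. Over the 3894 anchors, which share their library and partners, the Spearman correlation of width and partners was 0.49, and it was 0.22 over the 312 control anchors. The median anchor had 4 partners in the senescent and 1 in the control library, against 3 and 2 on the other autosomes. A single partner was listed for 13.2% of senescent and 58.3% of control anchors.

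**Figure D4:**
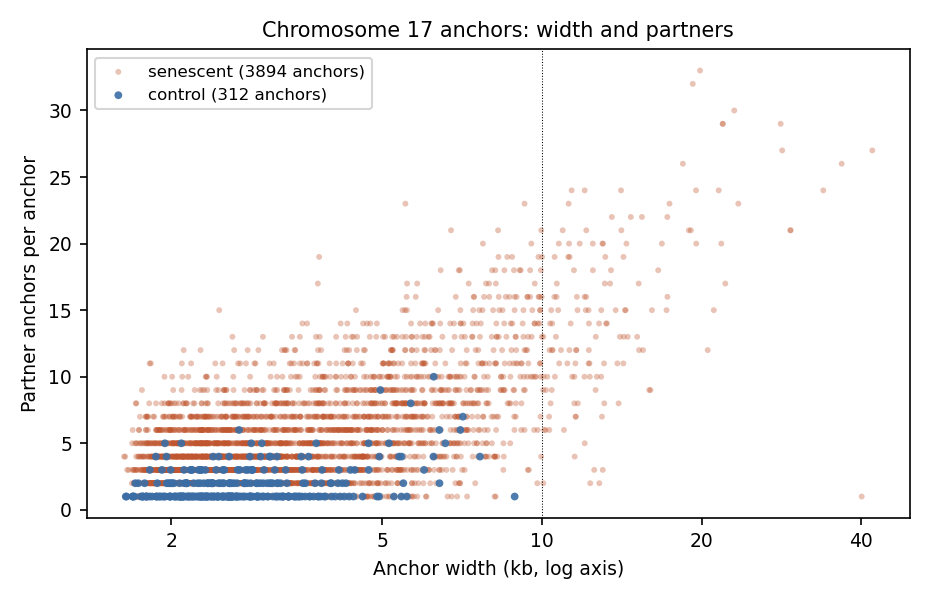
Width in kb (log axis) and number of partner anchors of each chromosome 17 anchor, for 3894 senescent and 312 control anchors; the dotted line marks 10 kb. All control anchors lie left of the line with at most 10 partners, and the anchors with the most partners lie right of it, up to 33.

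The senescent anchor with the most partners was at 74518340 to 74538195, over CYGB, the gene of cytoglobin, a haem protein of fibroblasts. It had 33 partners and 60 PETs, 10 of them with its neighbour at 74539086 to 74544718, and 21 partners lay more than 100 kb away. The second, at 42074645 to 42093879 by NAGS and PYY, had 32 partners and 41 PETs. The third was the ACTG1 anchor with 30 partners and 59 PETs, and the fourth, at 79356915 to 79378810 by BAHCC1, had 29 partners and 61 PETs. The HIC1 anchor had 29 partners as well, 22 of them on its centromere side, and 60 PETs. The anchor at 76367156 to 76389077 by PGS1, the gene after SOCS3, had 29 partners and 47 PETs. The SEPTIN9 anchor at 75366613 to 75394973 had 27 partners and the most PETs of the 8, 81, and the COL1A1 anchor completed them. Only the COL1A1 anchor overlapped a control anchor, which had 1 PET. In all, 47 senescent anchors had at least 20 partners; 40 of them were wider than 10 kb, 23 began at or beyond 72 Mb, and 11 overlapped a control anchor.

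Chained through shared anchors, the senescent contacts formed a few long runs. Of 27 connected groups of anchors, the largest held 1621 anchors (41.6%) from 53023581 to 81187807. The next held 1023 anchors from 11999 to 21455753, 953 from 32574721 to 49340877 and 239 from 25533307 to 31764857. These 4 runs were separated at the centromere, between 31764857 and 32574721, and across the empty windows from 50 to 53 Mb. No contact listed on any autosome spanned more than 1999932.5 bp. The gaps at the centromere and around 50 to 53 Mb are wider than that, so no listed contact could have joined the runs across them. The 312 control anchors fell into 79 groups, 48 of them a single pair. The largest held 28 anchors from 60601655 to 62925609, and the second held 21 from 56780005 to 58351703, the VMP1 region.

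Taken over all contacts, those on chromosome 17 were shorter than on the other autosomes in both libraries. Contacts of at least 2 PETs were not, as given below. Measured from midpoint to midpoint of the anchors, the median control contact spanned 52.1 kb (40.9 to 69.8 kb, order-statistic interval), against 86.5 kb (82.7 to 89.8 kb) on the other autosomes. The median senescent contact spanned 86.3 kb (82.1 to 90.3 kb), against 98.4 kb (97.2 to 99.5 kb). Among the 22 autosomes, from longest to shortest, chromosome 17 ranked 21 by the control and 20 by the senescent median. Spans from 100 to 500 kb made up 23.2% of its control contacts (18.4 to 28.5%), against 32.6% (31.7 to 33.4%) on the other autosomes. In the senescent library the shares were 32.1% (31.2 to 33.1%) and 33.0% (32.7 to 33.2%).

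**Figure D5:**
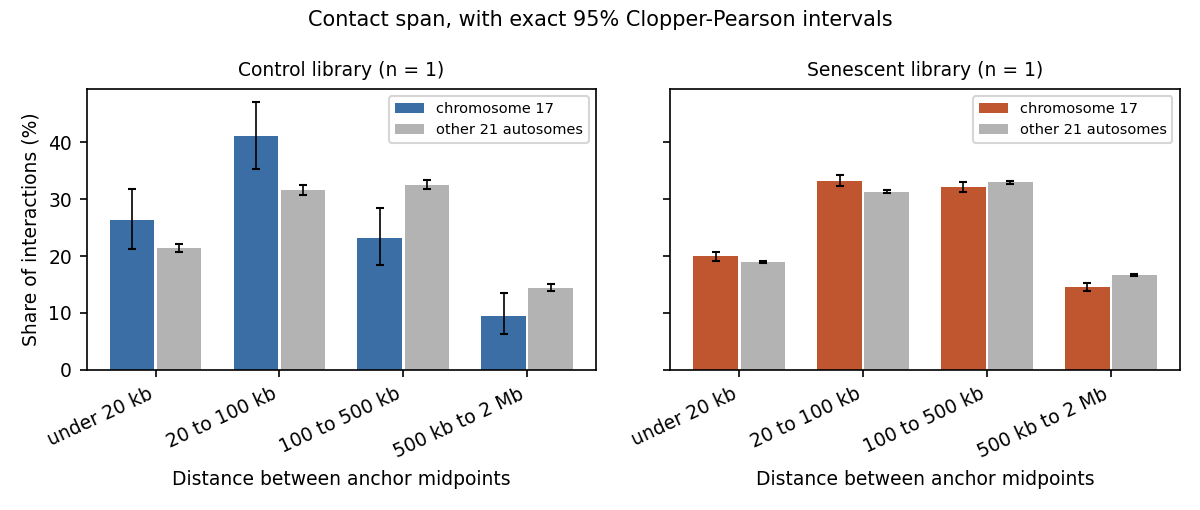
Share of contacts by distance between anchor midpoints on chromosome 17 (coloured) and on the other 21 autosomes (grey), in each library, with exact Clopper-Pearson intervals at 95%. In the control library 41.1% of chromosome 17 contacts span 20 to 100 kb, against 31.6% elsewhere, and in the senescent library the coloured and grey bars differ by less.

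The median span was thus 1.66 times longer in the senescent library than in the control library on this chromosome. Contacts of 1 PET had medians of 68.7 kb (control) and 116.4 kb (senescent), against 109 and 127.9 kb on the other autosomes. For contacts of at least 2 PETs the medians were 21.3 and 21.8 kb, against 17.4 and 20.4 kb on the other autosomes. The longest control contacts joined 66451061 to 66453339 with 68358793 to 68362952 (1909 kb), 26412458 to 26414523 with 28237612 to 28240111 (1825 kb) and 65958210 to 65960892 with 67756327 to 67762730 (1800 kb), each by 1 PET. The longest senescent contact joined 6382122 to 6384636 with 8380100 to 8385789 (1999.6 kb) by 1 PET. A single PET also joined the RAI1 anchor at 17609439 to 17646155 with 19625169 to 19628834 (1999 kb), and another joined 78036945 to 78039155 with 80031939 to 80037615 (1997 kb). On the other autosomes the listed senescent spans ran from 5000 to 1999932.5 bp. The longest senescent contacts named here thus lie at the upper end of the listed spans, and whether longer contacts occurred cannot be read from them.

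At least 2 PETs were listed for 55 of 285 control contacts (19.3%, 14.9 to 24.4%) and 1755 of 10050 senescent contacts (17.5%, 16.7 to 18.2%). On the other autosomes the shares were 13.2% (12.6 to 13.8%) and 14.2% (13.99 to 14.4%). Chromosomes 18 (20.7%) and 22 (20.3%) had higher control shares, and chromosome 19 (17.9%) a higher senescent share. In the control library 16 of the 55 lay inside the VMP1 locus, and without the window at 57 to 58 Mb the control share was 15.7% (11.4 to 20.9%), an interval that holds the share of the other autosomes. At least 5 PETs were listed for 108 senescent contacts and for 0 control contacts, whose highest count was 4.

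Most control anchors recurred in the senescent library, and few senescent anchors in the control library. An overlap of 1 bp or more with a senescent anchor was found for 246 of the 312 control anchors (78.8%, 73.9 to 83.2%), against 69.6% (68.7 to 70.4%) on the other autosomes. The reverse held for 232 of the 3894 senescent anchors (5.96%, 5.23 to 6.75%), against 11.5% (11.2 to 11.7%) elsewhere. Anchors covered 15.3 Mb of the chromosome in the senescent library and 0.901 Mb in the control library. The part of table size in these shares was not tested. The 232 had a median width of 4107 bp, against 2904 bp for the rest, and a median of 6 partners against 4. A wider anchor meets another more easily, and the part of width in this was not tested either. Senescent contacts with both ends outside the control sites numbered 8524 (84.8%), and 173 had both ends at them. Of the 285 control contacts, 77 (27.0%, 21.95 to 32.6%) were also listed between overlapping anchors in the senescent library. Their median span was 26.6 kb and 35.1% of them had 2 PETs or more, whereas the other 208 had a median of 75.0 kb and 13.5%. Only 9 of the 77 spanned more than 100 kb. These counts of contacts were not made for the other autosomes, so whether they are particular to chromosome 17 was not tested.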

How the data were processed

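METTL3 HiChIP tables of 1 control and 1 senescent IMR90 library were used. Per the submitters' processing notes, HiC-Pro 3.1.0 and the build hg19 were used. How contacts were called, where anchors came from and whether duplicates were removed is not given in the sources used here. No header line stands in the deposited files. Their whole-number column was taken as the raw PET count that the authors deposited for each anchor pair, and their last column as a deposited p-value or q-value, which of these is not stated. The latter served only as a filter in an alternative.

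Contacts, anchors, partners, spans and 1-Mb windows were derived in Python 3.11.15 (scipy 1.17.1, pandas 2.3.3, numpy 2.4.6, networkx 3.6.1). Anchors overlapping by at least 1 bp counted as shared. Ratios were given for windows of at least 10 PETs in sum. With 1 library per group no test between groups was made and no p-value computed. The 95% intervals are order-statistic for medians, exact conditional binomial for ratios and exact Clopper-Pearson for shares. Intervals were tested on simulated data. PETs copied from the same molecule would make them too narrow.

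Named in each library were the 10 fullest windows, the 8 contacts with the most PETs, the 3 longest contacts and the 8 anchors with the most partners, with the 5 highest and 5 lowest window ratios. Other anchors and the locus bounds fall outside this rule. The members, lists and loci were chosen with earlier results of these data known. Planned gene lists were not counted, since no hg19 annotation was used.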

Additional observations from a re-analysis of the deposited data

How the results depend on the processing

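Of 52 alternatives to 16 results, 29 left the value within its interval, or within 1.5 times for a count. Reversal of direction was looked for only in the ratio of median spans, which stayed above 1 throughout. The share of autosomal contacts on chromosome 17, 2.88 times higher in the senescent library, was 2.41 times for at least 2 PETs, 2.05 times for anchors and 3.26 times without the window at 57 to 58 Mb. With at least 2 PETs median spans were 21.3 kb (control) and 21.8 kb (senescent) and their ratio 1.02, median widths were 2934 and 3806.5 bp, 53 windows had senescent contacts only, and the 10 fullest windows held 79.8% and 41.0% of PETs. With spans of at least 20 kb the medians were 85.8 and 133.6 kb; weighting by PETs gave 57.8 kb in the senescent library. Contacts of at least 2 PETs made up 14.3% (control) and 11.4% (senescent) from 20 kb on, and 14.3% and 13.3% at a deposited value of at most 0.05. Within 5 kb, 85.6% of control anchors met a senescent anchor. Window ratios depended on scaling: 41 windows were higher and 6 lower when scaled to all deposited PETs, and 74 and 0 without scaling. Without the window at 57 to 58 Mb, 13 windows were higher and 14 lower, against 17 and 12 with it. Removing the window at 57 to 58 Mb and limiting anchors to the widest control width were chosen after seeing the data. No paired analysis was possible because each group held 1 library. The control library's 354 PETs limit every window ratio.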

Other observations

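Wide anchors were not needed for many partners. Among senescent anchors no wider than the widest control anchor, the most connected lay at 41665349 to 41670871, with 23 partners and 29 PETs in a width of 5.52 kb. It was followed by 40556440 to 40564698, at CAVIN1, which encodes a coat protein of caveolae, with 21 partners and 36 PETs, and by 78957343 to 78964075 with 21 partners and 29 PETs. From 40.53 to 40.6 Mb, at CAVIN1, the senescent library had 17 contacts with 34 PETs and the control library 1 contact with 1 PET, although all 4 control anchors there overlapped a senescent anchor. The shares of chromosome 17 PETs were 0.263% (senescent) and 0.282% (control). The stretch from 58.7 to 59.5 Mb holds BCAS3 and reaches past its end, on the side of TBX2, the next gene in the RefSeq order. Whether the stretch takes in TBX2 was not tested, since no hg19 annotation was used. In this stretch the control library had 7 contacts with 13 PETs and the senescent library 64 contacts with 102 PETs. The stretch held 3.67% of the control and 0.789% of the senescent PETs of chromosome 17. At its far end a senescent anchor of 29.4 kb, from 59465908 to 59495325, had 21 partners and 33 PETs.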
